A study of Bos grunniens with 12 samples.

Results

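The genes that mark the Sertoli cell were followed in yak testes of 2 ages. Members were the rows of the deposited gene table under the symbols SOX9, AMH, WT1, GATA4, FSHR and DHH, with every differential m6A peak on them. Of these 6 symbols, 5 stand in the table, on 6 of its 20953 identifiers. WT1 has 2 identifiers, and no row stands under the symbol AMH, so AMH was not analysed here. Testes came from 3 yaks of 1.5 years (Y group, sexual maturity not reached) and 3 yaks of 5 years (M group, sexual maturity reached), all from 1 location. Each testis gave an input library, which is ordinary mRNA sequencing, and an m6A immunoprecipitated library, 12 libraries in all. Testes of the Y group were removed by castration and those of the M group were taken after slaughter, so age and the way of collection cannot be told apart. One field of the sample records, the developmental stage, contradicts the ages given in the titles for each sample. The ages in the titles were used, and with the other field every direction below would turn. The growth notes of the record also use the group letters the other way round from the article. Elongating spermatid transcripts such as TNP1 were higher in the Y group libraries, as given below. Which of the labels is right was not tested.

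Sertoli cells are the somatic cells that line the seminiferous tubule and nurse the germ cells. SOX9 is the transcription factor that sets Sertoli cell fate in the embryonic gonad, and WT1 and GATA4 are transcription factors that act with it and maintain the cell's identity. FSHR is the receptor through which the pituitary hormone FSH acts on the cell. DHH is a secreted hedgehog ligand that Sertoli cells send to Leydig and peritubular cells, and AMH is a hormone known as a mark of the immature Sertoli cell. GATA4 and WT1 are not exclusive to Sertoli cells, and Leydig cells also express GATA4.

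FPKM values, a fragment count corrected for transcript length and for the size of the library, of an input library summed to 133504 to 139921 in the Y group and to 116187 to 131024 in the M group. Fragment numbers are not in the table, so the depth behind each value is unknown. Across the genes tested, Y group libraries correlated with each other at 0.952 to 0.958 on the log2 scale, M group libraries at 0.868 to 0.935, and replicate 2 of the M group with the Y group at 0.942 to 0.947. Transcripts of late spermatids were found at both ages. TNP1, a protein that packs the DNA of elongating spermatids, was at 852 to 883 FPKM in the Y group and at 201, 641 and 550 FPKM in replicates 1, 2 and 3 of the M group. Every Y group library was above every M group library in this transcript.

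All 5 measured Sertoli cell genes were higher in the M group, by 1.55 to 2.04 times in mean FPKM. For each of them every M group library lay above every Y group library. The same was found for 19.8% of all genes tested, and groups without overlap in either direction for 33.7%. Values are means ± SD over 3 animals, and each fold change is from limma on log2(FPKM + 0.1). None of the 5 had an adjusted p-value under 0.05 (Benjamini-Hochberg over the 12437 genes tested), and only 4 of all genes did, or 0.0322%. In bulk tissue, more Sertoli cells per sample, more RNA of a gene per Sertoli cell and a smaller share of RNA from other cells cannot be told apart.

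**Figure D1:**
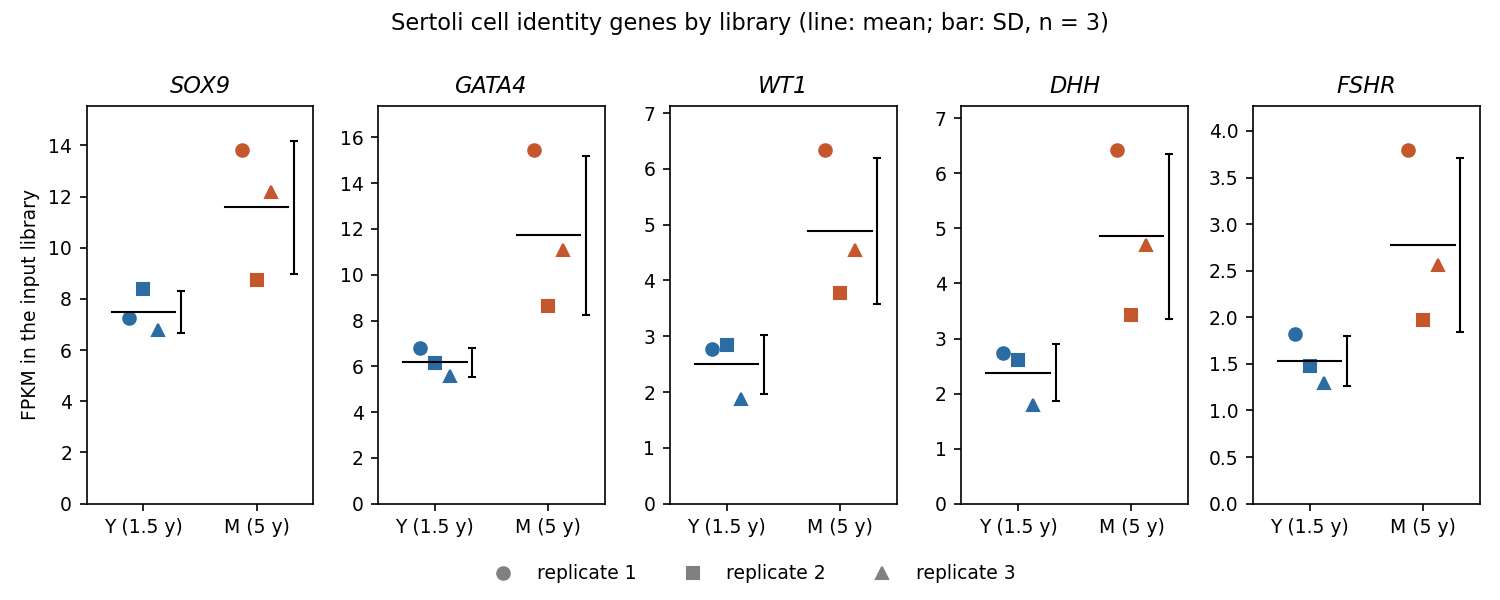
FPKM of the 5 measured Sertoli cell genes (vertical axes from 0, 1 panel a gene) in the 6 input libraries, with blue points for the Y group and orange points for the M group, shapes for replicates, lines for means and bars for the SD (n = 3). In every panel the M group replicates stand in the order 1, 3, 2 from high to low. The lowest of them is above the highest Y group library, as in 19.8% of all genes tested.

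Among the transcription factors, SOX9 (ENSBGRG00000026479) was at 7.25, 8.38 and 6.80 FPKM in replicates 1, 2 and 3 of the Y group. At 5 years it was at 13.8, 8.73 and 12.2 FPKM. The gap between the groups was narrow, since the lowest M group library was only 1.04 times the highest Y group library. The means were 7.48 ± 0.816 and 11.6 ± 2.60 FPKM, a log2 fold change of 0.60 (standard error 0.20, unadjusted p = 0.0194, adjusted p = 0.160), the smallest of the 5.

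GATA4 (ENSBGRG00000002675), a zinc finger factor of Sertoli and Leydig cells, was at 6.80, 6.14 and 5.56 FPKM in the Y group. At 5 years it was at 15.5, 8.64 and 11.1 FPKM. These libraries were thus further from the Y group than those of SOX9, with the lowest at 1.27 times the highest Y group library. From 6.17 ± 0.619 to 11.7 ± 3.46 FPKM, the log2 fold change was 0.88 (standard error 0.23, unadjusted p = 0.00570, adjusted p = 0.154).

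WT1 was measured on ENSBGRG00000014474, at 2.77, 2.84 and 1.88 FPKM in the Y group. The M group libraries were at 6.34, 3.78 and 4.54 FPKM. Replicate 3 was the lowest Y group library and replicate 1 the highest M group library, as for GATA4. The means of 2.50 ± 0.533 and 4.89 ± 1.32 FPKM gave a log2 fold change of 0.93 (standard error 0.25, unadjusted p = 0.00698, adjusted p = 0.154). The other WT1 identifier, ENSBGRG00000014974, is listed at 0 in all 6 libraries, so summing both changed no value.

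FSHR (ENSBGRG00000011870), the hormone receptor, had the lowest level of the 5 genes in every library. The Y group libraries were at 1.82, 1.48 and 1.29 FPKM and the M group libraries at 3.80, 1.97 and 2.56 FPKM. As for SOX9, replicate 2 of the M group came close to the Y group, at 1.08 times its highest library. The means were 1.53 ± 0.271 and 2.78 ± 0.933 FPKM, a log2 fold change of 0.78 (standard error 0.27, unadjusted p = 0.0225, adjusted p = 0.165).

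DHH (ENSBGRG00000001304), the secreted ligand, had the largest log2 fold change of the 5 in the main fit. Its lead over WT1 was smaller than either standard error. GATA4 was ahead of DHH with a pseudocount of 1 (0.80 against 0.77), with quantile normalization (0.94 against 0.92) and without replicate 3 of the Y group (0.81 against 0.79). DHH was at 2.74, 2.61 and 1.79 FPKM in the Y group and at 6.43, 3.43 and 4.71 FPKM at 5 years. The lowest M group library was 1.25 times the highest Y group library. From 2.38 ± 0.515 to 4.86 ± 1.50 FPKM, the log2 fold change was 0.98 (standard error 0.27, unadjusted p = 0.00824, adjusted p = 0.154).

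All 5 genes had an unadjusted p-value under 0.05, higher in the M group, as did 14.2% of all genes tested (1767 of 12437, and 25.1% in either direction). Groups without overlap, with the M group above, were found for 5 of 5 and for 19.8% of all genes (33.7% in either direction). The median log2 fold change was 0.88 in the 5 genes and 0.04 in all genes. SOX9 stood at percentile 86.7 of the fold changes of all genes and the other 4 at percentiles 91.8 to 95.1. The M group libraries differed among themselves more than those of the Y group, with coefficients of variation of 22.5% to 33.6% against at most 21.6%. Relative to the Y group mean, replicate 1 of the M group was at 1.85 (SOX9) to 2.70 times (DHH), replicate 3 at 1.63 (SOX9) to 1.98 times (DHH), and replicate 2 at 1.17 (SOX9) to 1.51 times (WT1). The order 1, 3, 2 of the M group replicates was shared by all 5 genes, in each of which replicate 3 was also the lowest Y group library. The order 1, 3, 2 within the M group was found in 62.4% of the 2465 genes in which the M group lay above the Y group without overlap.

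Without replicate 2 of the M group, all 5 genes had an adjusted p-value under 0.05 (0.0245 to 0.0429), with log2 fold changes of 0.79 (SOX9) to 1.20 (DHH), but so did 2403 of all genes. With any other library left out, none of the 5 had an adjusted p-value under 0.05 (limma). An unadjusted one was kept by 3 or 4, against 8.31% to 9.99% of all genes as higher in the M group (limma). SOX9 lost it without replicate 1 or 3 of the Y group (unadjusted p = 0.0571 and 0.0686) or replicate 3 of the M group (unadjusted p = 0.0634), with limma adjusted p-values of 0.318 to 0.379. FSHR lost it without replicate 2 or 3 of the Y group (unadjusted p = 0.0580 and 0.0759) or replicate 1 or 3 of the M group (unadjusted p = 0.0562 and 0.0513), with limma adjusted p-values of 0.284 to 0.383. GATA4, WT1 and DHH had an unadjusted p-value under 0.05 in all 6 of these fits. Without replicate 1 of the M group the log2 fold changes were smallest, at 0.46 (SOX9) to 0.76 (DHH). The fits without any one library kept each gene higher in the M group.

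**Figure D2:**
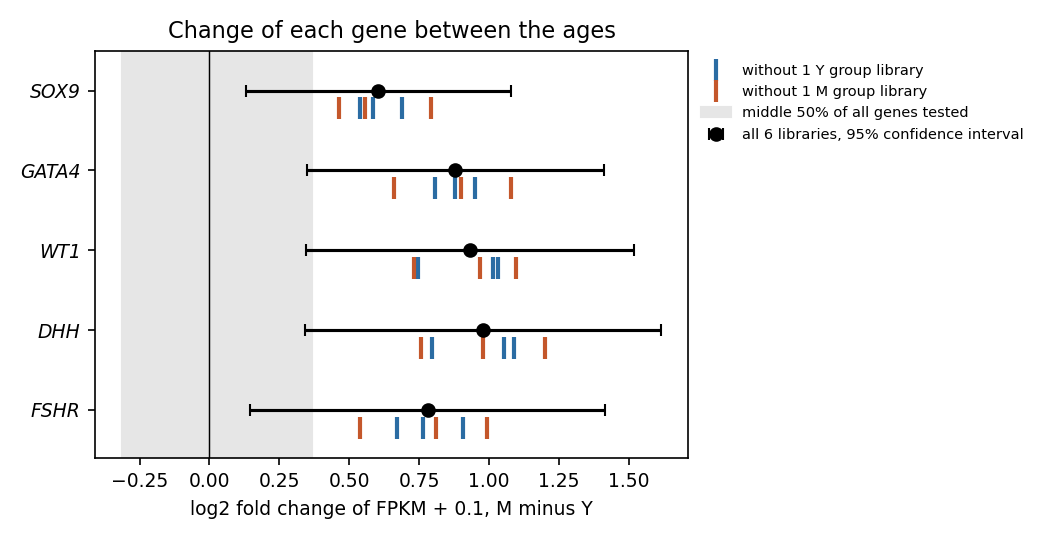
Difference in log2(FPKM + 0.1) between the ages (horizontal axis, positive is higher in the M group) for each Sertoli cell gene, with points and bars for the limma estimate and its 95% confidence interval. Short ticks give the estimate without 1 library of the Y group (blue) or M group (orange), and grey marks the interquartile range of all genes tested. No interval reaches 0, and the leftmost orange tick of each gene is the fit without replicate 1 of the M group.

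FPKM is scaled by transcript length, so the levels of the 5 genes can be set side by side within a library. SOX9 and GATA4 were the highest, WT1 and DHH stood between, and FSHR was the lowest. SOX9 exceeded GATA4 in 5 of 6 libraries, with replicate 1 of the M group as the exception, and the mean log2 ratio of 0.14 ± 0.21 was smaller than its SD over the libraries. WT1 exceeded DHH in 4 of 6 libraries, by a mean log2 ratio of 0.05 ± 0.08, also within the SD. GATA4 was above WT1 in 6 of 6 libraries, by a log2 ratio of 1.29 ± 0.15, and DHH above FSHR in 6 of 6, by 0.72 ± 0.16. These steps in the order were larger than their SD. An exact permutation test over the 6 libraries gave p = 0.03125 (adjusted p = 0.0625) for GATA4 against WT1 and for DHH against FSHR. For SOX9 against GATA4 and for WT1 against DHH, the exact permutation test gave p = 0.219 (adjusted p = 0.219). With 6 libraries its p-value cannot be under 0.03125, and no adjusted p-value of the levels was under 0.05. SOX9 and GATA4 were at percentiles 73.1 and 71.5 of the mean FPKM of all genes tested, and FSHR at percentile 29.9.

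The other 4 genes were also expressed as a ratio to SOX9 in the same library, which does not depend on the scaling of libraries. DHH was 0.378, 0.311 and 0.263 of SOX9 in the Y group and 0.465, 0.393 and 0.387 in the M group, with no overlap. The WT1 ratio was 0.277 to 0.382 in the Y group and 0.373 to 0.459 in the M group, and that of GATA4 was 0.733 to 0.938 and 0.908 to 1.12, both with overlap. The FSHR ratio also overlapped, at 0.177 to 0.252 and 0.211 to 0.275. The log2 differences of the ratios between the ages were 0.40 (DHH), 0.35 (WT1), 0.28 (GATA4) and 0.21 (FSHR). An exact permutation test gave p = 0.1 (DHH), 0.2 (WT1), 0.2 (GATA4) and 0.4 (FSHR). Its adjusted p-values were 0.267 (DHH, WT1 and GATA4) and 0.4 (FSHR). With 3 libraries against 3 this test cannot give a p-value under 0.1, so it cannot decide whether any ratio differed. The share of all genes without overlap in such a ratio is not given here.

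The 5 genes varied together over the 6 libraries. Their 10 pairs had Pearson correlations of log2(FPKM + 0.1) from 0.926 (FSHR and SOX9) to 0.995 (DHH and WT1), which includes the difference between the ages and is a description only. The genes whose values over the 6 libraries were most like the mean z-score of the 5 were SLC24A4 (r = 0.998), PTPN1 (0.998), PCED1B (0.997), ZNF518B (0.997) and CITED2 (0.997). SLC24A4 was at 2.47, 2.45 and 1.88 FPKM in the Y group and at 5.62, 3.02 and 3.90 FPKM in the M group. CITED2, a transcriptional cofactor, was at 3.99, 3.71 and 2.58 FPKM and then at 11.9, 4.79 and 8.13 FPKM. A correlation over 0.95 with that mean was reached by 785 of the other 12432 genes tested (6.31%), so such likeness was common in these libraries.

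Other cell types differed between the same libraries. The summed FPKM of the 5 Sertoli cell genes was 17.3 to 21.5 in the Y group and 26.5 to 45.9 in the M group. For 4 elongating spermatid genes (TNP1, HMGB4, GAPDHS and ODF1) the sum was 1154 to 1195 in the Y group and 263 to 849 in the M group. All 4 had an unadjusted p-value under 0.05 and were lower in the M group (10.9% of all genes tested). A further 4 elongating spermatid markers, TNP2, PRM1, PRM2 and AKAP4, were not analysed here. The 5 round spermatid genes, from TSSK1B as the highest to SUN5 as the lowest, summed to 156 to 220 and to 43.5 to 166, all 5 had a negative fold change, and 4 had an unadjusted p-value under 0.05. Replicate 1 of the M group, the highest library for each Sertoli cell gene, was the lowest for both spermatid lists, and replicate 2, the lowest M group library for each Sertoli cell gene, was the highest M group library for both. The part of these germ cell differences in the Sertoli cell result was not tested.

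The 8 peritubular and stromal genes were on the same side as the Sertoli cell genes. Their sum was 28.1 to 31.7 FPKM in the Y group and 40.6 to 67.1 FPKM in the M group, all 8 had a positive fold change (53.5% of all genes), and 6 had an unadjusted p-value under 0.05 (14.2% of all genes, higher in the M group). ACTA2, the smooth muscle actin of the tubule wall, was highest, at 6.85 to 7.87 and 8.81 to 17.0 FPKM, and CNN1 lowest, at 0.578 to 1.24 and 0.721 to 1.30 FPKM. The sum of the Sertoli cell genes was 0.761, 0.715 and 0.547 of the peritubular sum in the Y group and 0.683, 0.654 and 0.589 in the M group, so the groups overlapped in this ratio. Against the elongating spermatid sum, the same ratio was 0.0147 to 0.0186 in the Y group and 0.0313 to 0.175 in the M group. The absence of overlap here follows from the sums above, which separate in opposite directions, and adds nothing to them. The 6 spermatogonia genes (UCHL1 the highest, GFRA1 the lowest) summed to 31.9 to 33.5 and 38.3 to 77.0 FPKM, also without overlap. Only ID4 among them had an unadjusted p-value under 0.05. The Sertoli cell sum was 0.542 to 0.672 of the spermatogonia sum in the Y group and 0.596 to 0.752 in the M group, with overlap. The 8 spermatocyte genes, led by PIWIL1 with SPO11 as the lowest, summed to 93.0 to 97.6 and 78.2 to 96.7 FPKM, and none had an unadjusted p-value under 0.05.

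Of 7 Leydig cell markers, 2 were in the table, and neither had an unadjusted p-value under 0.05 with the M group higher. STAR, the cholesterol carrier of steroid synthesis, was at 9.04, 15.4 and 8.60 FPKM in the Y group and at 4.83, 5.67 and 6.30 FPKM in the M group (log2 fold change -0.92, unadjusted p = 0.00710, adjusted p = 0.154). CYP11A1 was at 1.05 to 3.71 and at 1.56 to 2.74 FPKM. Of 6 macrophage genes, C1QA and C1QB were higher and CD163 and AIF1 lower in the M group at an unadjusted p-value under 0.05. Among all genes tested, 14.2% passed as higher and 10.9% as lower, and the limma adjusted p-values of these macrophage genes were 0.154 to 0.164. The macrophage and endothelial (6 genes) sums overlapped between the groups, at 21.7 to 27.3 and 24.4 to 38.5 FPKM, and at 7.17 to 9.55 and 8.32 to 11.7 FPKM. The highest and lowest macrophage markers were AIF1 and CD163 and the endothelial ones VWF and EMCN. Of 4 markers of the rete testis, 3 were in the table. CDH16 is listed at 0 in all libraries, and PAX8 and CDH1 reached at most 0.318 FPKM together. The erythroid markers ALAS2 and HBM reached at most 0.856 FPKM together.

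**Figure D3:**
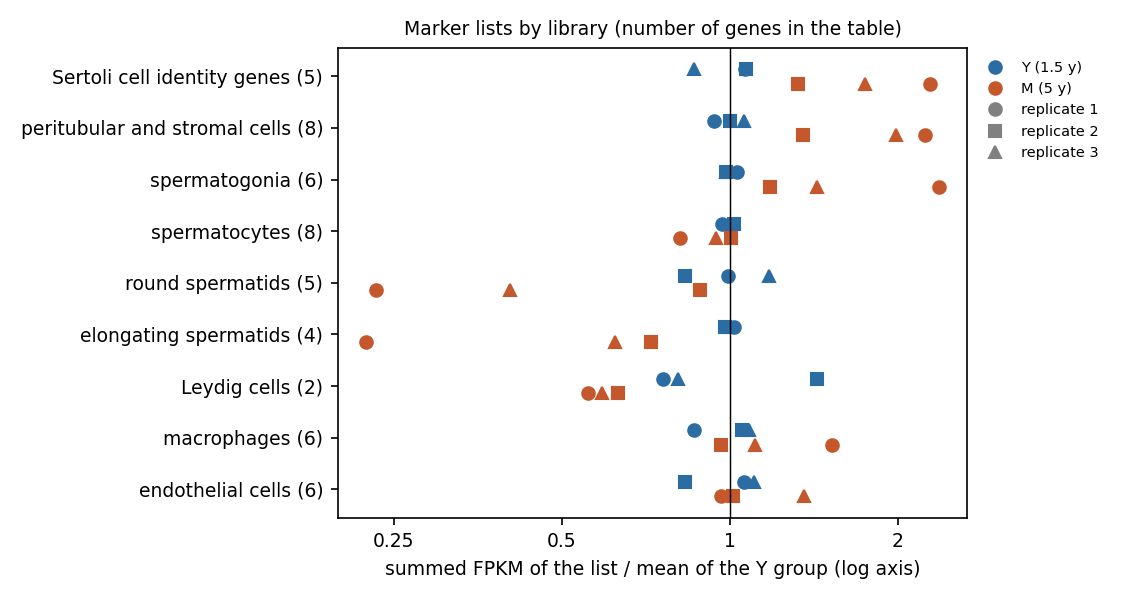
Summed FPKM of each marker list in the 6 input libraries as a ratio to the Y group mean (horizontal log axis), in blue for the Y group and orange for the M group, with shapes for replicates and the number of genes in the table in brackets. The Sertoli cell, peritubular and spermatogonia sums of the M group lie to the right of all Y group points. The elongating spermatid and Leydig cell sums lie to the left, and replicate 1 is the farthest of the M group in each of these lists.

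DHH was the only 1 of the 5 measured genes with a differential m6A peak, a region where the authors' comparison of the IP and input libraries found the m6A signal to differ between the ages. Such a peak was carried by 5.63% of the genes in the table and by 9.29% of the genes tested. DHH carried 2 of them, and 2 or more were carried by 174 genes (0.83%). On LU_Bosgru_v3.0, DHH spans 76707938 to 76712614 on the minus strand of chromosome 5 (4677 bp, transcript ENSBGRT00000002407). The first peak runs from 76709039 to 76709544 (506 bp), is annotated to exon 2 of 4 and begins 3070 bp after the annotated start of the gene. The second runs from 76708412 to 76708701 (290 bp), lies in the 3′UTR and ends 474 bp before the end of the gene.

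The widths of the DHH peaks lay on either side of the 398 bp median of the 1438 differential peaks, at percentiles 57.9 and 35.7. They do not overlap and are 337 bp apart, so they stayed 2 peaks when overlapping peaks were merged. Together they lie between 65.6% and 89.9% of the gene's length from its start. The table used here gives neither a direction, a fold change nor a value per animal for a peak, so no test between animals was made and it cannot be said from it whether the DHH peaks were stronger at 5 years. Of the 5 genes, DHH had the largest log2 fold change in the main fit of the input libraries, by a margin smaller than its standard error. SOX9, WT1, GATA4 and FSHR, which differed by 0.60 to 0.93 on the log2 scale, carried no differential peak. A link between peaks and expression was not tested.

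**Figure D4:**
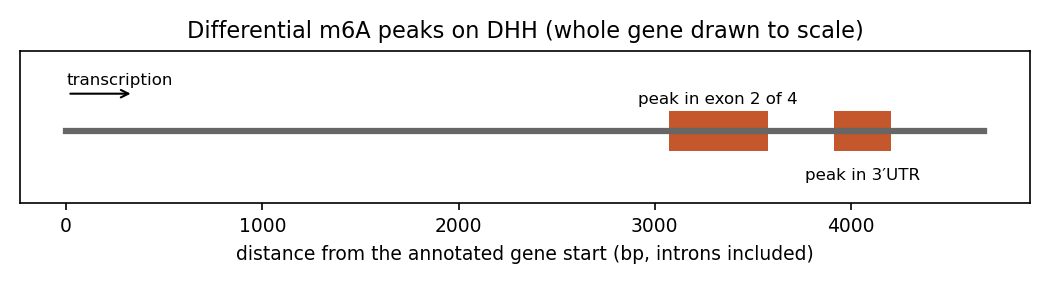
The 2 differential m6A peaks on DHH (orange boxes) along the gene (grey line, 4677 bp, drawn from its annotated start on the left, introns included), with the distance from the start in bp on the horizontal axis. Both boxes lie beyond 3070 bp from the start, 337 bp apart.

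The genes around the 5 were taken from 5 lists, given here by their counts. Of the transcription factors and cofactors of Sertoli cells, 9 of 14 were tested, 3 had an unadjusted p-value under 0.05 and were higher in the M group, none was lower, and the median log2 fold change was 0.40. Among all genes tested, 14.2% passed this threshold as higher and 10.9% as lower. TCF21 was at 0.515 ± 0.313 FPKM in the Y group and 1.77 ± 0.377 FPKM in the M group (log2 fold change 1.76, unadjusted p = 0.00713, adjusted p = 0.154), and it also marks stromal cells. GATA6 was at 2.42 ± 0.555 and 4.61 ± 2.17 FPKM (0.83, unadjusted p = 0.0406, adjusted p = 0.185). NR5A1, the steroidogenic factor shared with Leydig cells, was at 2.50 ± 0.255 and 3.29 ± 0.493 FPKM (0.38, unadjusted p = 0.0697, adjusted p = 0.226). Without replicate 2 of the M group, 6 genes of this list passed as higher in place of 3, and 21.8% of all genes did in place of 14.2%.

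Among the products of Sertoli cells, 8 of 14 genes were tested and 4 were higher at an unadjusted p-value under 0.05, against 14.2% of all genes, with a median log2 fold change of 0.34. INHA, the alpha subunit of inhibin, which Sertoli cells secrete under FSH, was the highest of them, at 65.2, 64.7 and 56.4 FPKM in the Y group and at 211, 81.2 and 100.1 FPKM in the M group (log2 fold change 0.95, unadjusted p = 0.0279, adjusted p = 0.168). Replicate 1 of the M group again stood far above the other libraries. INHBA, a beta subunit of inhibin and activin, was at 2.43 ± 0.228 and 4.41 ± 1.36 FPKM (0.79, unadjusted p = 0.0138, adjusted p = 0.154). VIM was at 8.98 ± 1.36 and 20.6 ± 7.70 FPKM (1.14, unadjusted p = 0.00455, adjusted p = 0.154) and KRT18 at 16.0 ± 0.360 and 21.8 ± 1.74 FPKM (0.44, unadjusted p = 0.0121, adjusted p = 0.154). Both are intermediate filament genes that other cells express too.

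In the signalling downstream of FSHR, 10 of 14 genes were tested and 4 were higher at an unadjusted p-value under 0.05, against 14.2% of all genes, with a median log2 fold change of 0.44. These were PRKAR2B (5.50 ± 0.311 and 10.1 ± 2.73 FPKM, log2 fold change 0.82, unadjusted p = 0.00720, adjusted p = 0.154), ADCY9 (1.00, unadjusted p = 0.0136), PRKACB (1.09, unadjusted p = 0.0152) and GNAS (0.77, unadjusted p = 0.0492, adjusted p = 0.197). They encode parts of the cAMP pathway, namely 2 subunits of protein kinase A, an adenylyl cyclase and the stimulatory G protein, and are used in many cell types. With quantile normalization or median-of-ratios scaling, 3 genes of this list passed, against 12.6% and 11.4% of all genes as higher.

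For AMH, the receptor AMHR2 was not analysed either. Of the shared BMP-type receptors and SMAD proteins through which it signals, 8 of 10 listed genes were tested and 3 were higher at an unadjusted p-value under 0.05, against 14.2% of all genes, with a median log2 fold change of 0.51. The type I receptor BMPR1A was at 2.29 ± 0.0309 and 3.40 ± 0.382 FPKM (log2 fold change 0.54, unadjusted p = 0.00972, adjusted p = 0.154), SMAD4 at 4.08 ± 0.607 and 6.97 ± 1.94 FPKM (0.73, unadjusted p = 0.0130, adjusted p = 0.154) and the inhibitory SMAD7 at 1.26 ± 0.246 and 2.59 ± 0.971 FPKM (0.92, unadjusted p = 0.0253, adjusted p = 0.168). SMAD5 was at 4.59 ± 0.0526 and 6.38 ± 1.58 FPKM (0.44, unadjusted p = 0.0633, adjusted p = 0.218). Without replicate 3 of the Y group, 1 gene of this list passed, against 8.31% of all genes as higher. Without replicate 2 of the M group 5 did, against 21.8% of all genes.

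In the hedgehog pathway, which receives DHH, 14 of 17 genes were tested and 2 were higher at an unadjusted p-value under 0.05, a share close to the 14.2% of all genes, with a median log2 fold change of 0.23. PTCH1, the receptor of DHH and a target gene of the pathway, was at 1.94, 2.38 and 2.02 FPKM in the Y group and at 6.17, 3.75 and 5.16 FPKM in the M group (log2 fold change 1.19, standard error 0.21, unadjusted p = 0.000793, adjusted p = 0.154). SMO, the signal transducer that PTCH1 holds back, was at 1.33 ± 0.319 and 2.12 ± 0.387 FPKM (0.64, unadjusted p = 0.0304, adjusted p = 0.171). GAS1, a coreceptor, was at 1.48 ± 0.525 and 2.14 ± 0.444 FPKM (0.54, unadjusted p = 0.114, adjusted p = 0.284), and DISP1, which releases the ligand, at 1.13 ± 0.290 and 0.697 ± 0.411 FPKM (-0.78, unadjusted p = 0.157, adjusted p = 0.336). GLI1, another target gene, was too low to be tested, at 0.192 ± 0.117 and 0.365 ± 0.110 FPKM. The other ligands of the family, SHH and IHH, did not exceed 0.230 FPKM in any library. The symbol PTCH1 stands on 4 identifiers, and the one with the highest mean was used. With quantile normalization, 1 gene of this list passed in place of 2 (12.6% of all genes as higher). The same count was reached without replicate 1 of the Y group or replicate 1 or 3 of the M group (8.36% to 9.99%).

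**Figure D5:**
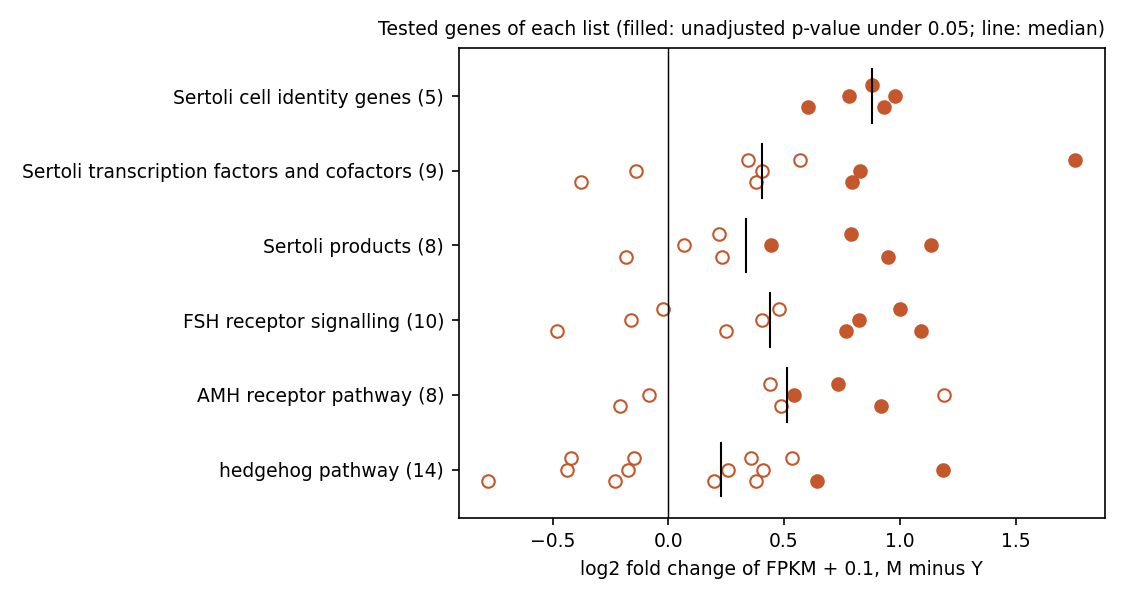
The log2 fold change of FPKM + 0.1 between the ages (horizontal axis, positive is higher in the M group) of every tested gene in the Sertoli cell identity list and the 5 related lists, with filled points for an unadjusted p-value under 0.05, black lines for list medians and the number of tested genes in brackets. The list medians lie between 0.23 and 0.88, and all filled points are positive.

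Of the 60 genes of these 5 lists in the table, 8 carried a differential m6A peak (13.3%, against 5.63% of all genes in the table), and all 8 were among the 49 tested (16.3%, against 9.29%). They included NR0B1, GATA6, INHBA, TF, SMO, SMAD7 and ADCY9, named here after their values were seen. Their peaks, like those on DHH, have no direction in the table.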

How the data were processed

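The authors deposited FPKM values of 20953 genes in 6 input libraries. Per the methods, reads were trimmed with Trimmomatic, rRNA was removed with SortMeRNA, reads were aligned with HISAT2 (2.0.4 in the submitters' processing notes) to LU_Bosgru_v3.0, and unique reads were kept. The program that computed FPKM is not given in the sources used here. The authors called differential peaks with MeTDiff and annotated them with ChIPseeker. Their peak width and distance were used as deposited. Peak lists of single groups, IP values and sequences were not used here.

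Genes whose FPKM averaged 0.5 or more in the 6 input libraries (12437) were transformed to log2(FPKM + 0.1), and limma 3.58.1 (R 4.3.3) gave the difference between the ages (trended eBayes, two-sided, Benjamini-Hochberg). The step was tested on simulated data. Sums, ratios and the exact permutation tests were computed in Python 3.11.15. Figures were drawn with matplotlib 3.10.9. The members and lists were chosen with earlier results of these data known. Named were all members, the 4 genes with the smallest p-value of each of the 5 related lists, the 5 genes most like the members, and the highest and lowest marker of a cell type. A gene of the transcription factor list is counted but not reported here by name. Further genes are named as chosen after their values were seen: ID4, C1QA, C1QB, TNP1, HMGB4, GAPDHS and other markers outside that rule, GLI1, SHH and IHH. A symbol on several identifiers was taken at the one with the highest mean. The group letters are those of the article (the growth notes of the record use them the other way round). The planned search of promoters for motifs was not run.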

Additional observations from a re-analysis of the deposited data

How the results depend on the processing

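The log2 fold changes of the 5 Sertoli cell genes were positive under every alternative run: other pseudocounts (1 and 0.01), filters, 3 scalings, 2 forms of eBayes, a replicate block and each library left out. Without 1 library they ranged from 0.46 to 0.79 (SOX9), 0.66 to 1.08 (GATA4), 0.73 to 1.10 (WT1), 0.54 to 0.99 (FSHR) and 0.76 to 1.20 (DHH). The number of the 5 with an unadjusted p-value under 0.05 was then 3 to 5, and with an adjusted one 0 to 5, where 5 is the fit without replicate 2 of the M group. It was 5 and 0 under all other settings. Of all genes tested, 8.31% to 21.8% passed unadjusted as higher in the M group without 1 library. The highest share was again without replicate 2 of the M group. Under the other settings the share was 11.3% to 19.4%. Without 1 library, 2 to 6 of the Sertoli transcription factors were higher in the M group at an unadjusted p-value under 0.05. So were 1 to 3 genes of the hedgehog list and 1 to 5 of the AMH receptor list, against 8.31% to 21.8% of all genes. Lower ones numbered 0 to 1 in the hedgehog and FSH receptor lists, against 607 to 2279 of all 12437 genes. With quantile normalization 1 hedgehog gene was higher (12.6% of all genes), and without a trend in eBayes 1 was lower (1247 of all genes). The causes were not tested. Rescaling each library to 1 common sum moved the median of all genes from 0.04 to 0.17, and the members then stood 0.57 (SOX9) to 0.96 (DHH) above it, against 0.56 to 0.94. Genes with an unadjusted p-value under 0.05 were split into 1767 higher and 1356 lower, into 2418 and 1044 after that rescaling, and into 1416 and 1703 with median-of-ratios scaling. Among all genes the adjusted count was 4, and 2403 when M group replicate 2 was left out, or 0 when Y group replicate 3 was.

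Replicate numbers are shared between the groups, but nothing says that they pair animals, and deviations of same-numbered libraries correlated at -0.022, -0.091 and 0.0067. With the replicate block, log2 fold changes were unchanged at 0.60 (SOX9), 0.88 (GATA4), 0.93 (WT1), 0.78 (FSHR) and 0.98 (DHH), with adjusted p-values of 0.204 to 0.232, and 1 gene of all had an adjusted p-value under 0.05. Fragment numbers are not in the table, so the counting error of low values such as FSHR could not be given.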
